A study of Rattus norvegicus with 36 samples.

Results

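Liver RNA of 12 male Harlan Sprague Dawley rats given 97.1 or 970 mg/kg of DBDPE was set against that of 12 rats given 0.1 or 0.97 mg/kg, using 24 of the 36 arrays of a dose series. The arrays were chosen by the dose in their titles, 6 at each of these 4 doses, and all 31042 probe sets that are not array controls were compared, of 31099 in all. DBDPE, decabromodiphenyl ethane, is a brominated flame retardant. All 24 animals were 7 weeks old at the start, ate the same NTP-2000 diet, and received DBDPE in corn oil by gavage at 5 ml/kg for 5 consecutive days. Their livers were collected 1 day after the last dose, and RNA of the left lobe was hybridised to Affymetrix 3′ IVT arrays, which read the 3′ end of transcripts. The reference is a low dose and not vehicle: both arms received DBDPE, and the 6 vehicle arrays and the 6 arrays at 9.71 mg/kg did not enter the comparison. It asks which transcripts differ across the wide gap between the upper and the lower end of the dose range.

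Halogenated aromatic compounds can act on the liver through the aryl hydrocarbon receptor (AhR), a ligand-activated transcription factor that moves into the nucleus and binds DNA with its partner Arnt. Cyp1a1 and Cyp1a2, cytochrome P450 enzymes that oxidise planar aromatic compounds, are its classical targets in liver. Cyp1a1 is nearly silent in untreated liver, whereas Cyp1a2 is abundant in the hepatocytes around the central vein. The receptors CAR and PXR, which switch on the Cyp2b and Cyp3a families, PPARα, which switches on Cyp4a and fatty acid oxidation, and Nrf2, the regulator of antioxidant genes, are the other usual routes by which foreign compounds change liver transcripts.

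Across all 31042 probe sets, only Cyp1a1 and Cyp1a2 were higher at the top doses than at the low doses by limma with Benjamini-Hochberg adjustment at a threshold of 0.05, which is 0.00644% of the probe sets. No probe set was lower (0%). Without adjustment 1591 probe sets had p under 0.05, where chance alone gives 1552.1, and the smallest adjusted p outside these 2 genes was 0.2. The same 2 probe sets, again 0.00644%, were the only ones on which all 12 top-dose arrays lay above all 12 low-dose arrays, and on 0% did all 12 lie below. The replicates in each dose group are numbered in the labels and were taken as separate rats, which the labels do not state; otherwise the p-values measure only the spread between these samples.

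Cyp1a1, the inducible enzyme of the pair, showed by far the largest difference on the arrays. At the top doses its log2 signal had a minimum of 6.66, a median of 9.64 and a maximum of 11.81, against a minimum of 4.18, a median of 4.69 and a maximum of 5.07 at the low doses. The groups did not overlap, and the lowest top-dose array stood 1.58 above the highest low-dose array. The mean was 9.43 ± 1.65 at the top doses and 4.67 ± 0.22 at the low doses (SD, n = 12 each). The log2 difference was 4.77 (SE 0.23, 95% interval 4.29 to 5.24), or a 27.2-fold higher signal (19.6 to 37.8), with a limma adjusted p of 9.05e-13. The low-dose mean lay under the array medians of 5.07 to 5.12, and the values carry no detection call, so this and the other Cyp1a1 folds are ratios of signals whose lower side was not shown to be above background.

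Within the 12 top-dose rats, Cyp1a1 was ordered by dose and varied from rat to rat. Its log2 signal averaged 4.6 ± 0.21 at 0.1 mg/kg, 4.73 ± 0.22 at 0.97 mg/kg, 8.06 ± 1.05 at 97.1 mg/kg and 10.81 ± 0.63 at 970 mg/kg (SD, n = 6 each). At 97.1 mg/kg the signal ran between 6.66 and 9.26, with a median of 8.22, and at 970 mg/kg between 10.02 and 11.81, with a median of 10.81. All 6 arrays at 970 mg/kg lay above all 6 at 97.1 mg/kg, whereas the 2 low doses overlapped. Since the spread at 97.1 mg/kg was wider than at the other doses, the SE was also computed from the 4 groups' own spreads, which gave 0.26 in place of 0.23.

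Cyp1a2, which metabolises aromatic amines and caffeine, started from a high signal and moved far less. Its log2 signal at the top doses had a minimum of 13.23, a median of 13.54 and a maximum of 13.78, against a minimum of 12.71, a median of 12.98 and a maximum of 13.07 at the low doses. These groups also did not overlap, with a gap of 0.16 between the lowest top-dose array and the highest low-dose array. The difference was 0.56 (SE 0.04, 0.47 to 0.65), or 1.48-fold (1.38 to 1.57), with a limma adjusted p of 3.76e-08. These signals lay toward the upper end of the signal scale (highest value 14.68). Whether that made the fold smaller than the change in transcript was not tested.

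Cyp1a2 was ordered by dose in the same way. The mean log2 signal was 12.95 ± 0.12 at 0.1 mg/kg, 12.92 ± 0.12 at 0.97 mg/kg, 13.32 ± 0.1 at 97.1 mg/kg and 13.67 ± 0.08 at 970 mg/kg (SD, n = 6 each). All 6 arrays at 970 mg/kg again lay above all 6 at 97.1 mg/kg. For both genes a two-sided permutation test of the difference between the 12 top-dose and the 12 low-dose arrays gave p = 2e-05, the smallest that 100000 resamples can give. Groups that do not overlap lead to this smallest value, so the test adds nothing to the lack of overlap. Its p is not adjusted for the 31042 probe sets from which the genes stood out.

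**Figure D1:**
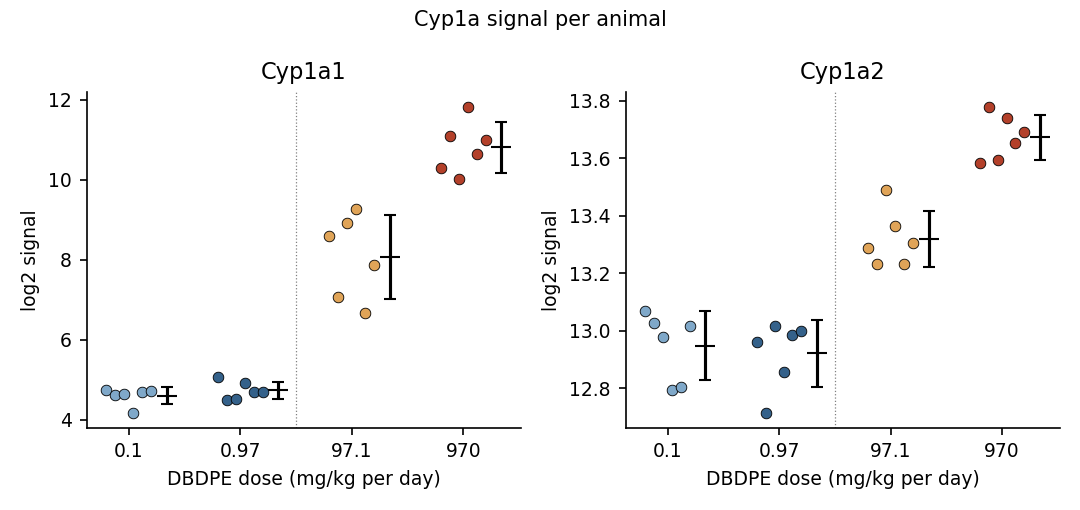
Log2 signal of Cyp1a1 (left) and Cyp1a2 (right) in each of 24 rats by DBDPE dose in mg/kg per day, with the mean and SD of the 6 rats beside each dose and a dotted line between the low and the top doses. In both panels every top-dose rat lies above every low-dose rat, and the rats at 970 mg/kg lie above those at 97.1 mg/kg.

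The rats with more Cyp1a1 tended to be those with more Cyp1a2 within each top dose, a relation looked at after the values were seen. At 97.1 mg/kg Pearson's r between the log2 signals was 0.784 (n = 6 rats, exact permutation p = 0.0361) and Spearman's rho was 0.886 (exact permutation p = 0.0333). At 970 mg/kg r was 0.849 (n = 6 rats, exact permutation p = 0.0361) and rho 0.886 (exact permutation p = 0.0333), and the Benjamini-Hochberg adjusted values over the 2 doses were the same as the raw ones. Without the 2 rats farthest from the median of Cyp1a1, r over the other rats was 0.533 at 97.1 mg/kg and 0.95 at 970 mg/kg, so the relation at 97.1 mg/kg leaned on those rats. Both signals of a rat come from 1 array.

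Each top dose was then set against the 12 low-dose arrays on its own; these comparisons share the low-dose arrays. Cyp1a1 and Cyp1a2 were again the only probe sets past the threshold at 97.1 mg/kg (0.00644%) and at 970 mg/kg (0.00644%). Cyp1a1 was 3.39 higher on the log2 scale at 97.1 mg/kg (2.81 to 3.97, limma adjusted p = 2.13e-07) and 6.14 higher at 970 mg/kg (5.56 to 6.72, limma adjusted p = 2.71e-13), that is 10.5-fold and 70.5-fold. Cyp1a2 was 0.38 higher at 97.1 mg/kg (0.27 to 0.5, limma adjusted p = 0.00343) and 0.74 higher at 970 mg/kg (0.63 to 0.85, limma adjusted p = 7.8e-09), that is 1.31-fold and 1.67-fold. In these fits the spread comes from all 24 arrays. With only the arrays compared, 4 probe sets passed at 97.1 mg/kg, the other 2 being the 2 probe sets of Prcp, at -0.81 and -0.85. With all 36 arrays in the fit, 4 passed at 970 mg/kg, the other 2 being a probe set with no gene name at 0.68 and Cenpw, a kinetochore protein, at 0.72.

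The 2 low doses were also compared with each other. Between 0.97 and 0.1 mg/kg 0 of 31042 probe sets (0%) passed by limma, 1405 had an unadjusted p under 0.05, and the smallest adjusted p was 0.987. Cyp1a1 differed there by 0.13 (-0.54 to 0.8) and Cyp1a2 by -0.03 (-0.16 to 0.1) on the log2 scale. A dose of 0.1 or 0.97 mg/kg is not a dose of 0, and vehicle was not part of this comparison.

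**Figure D2:**
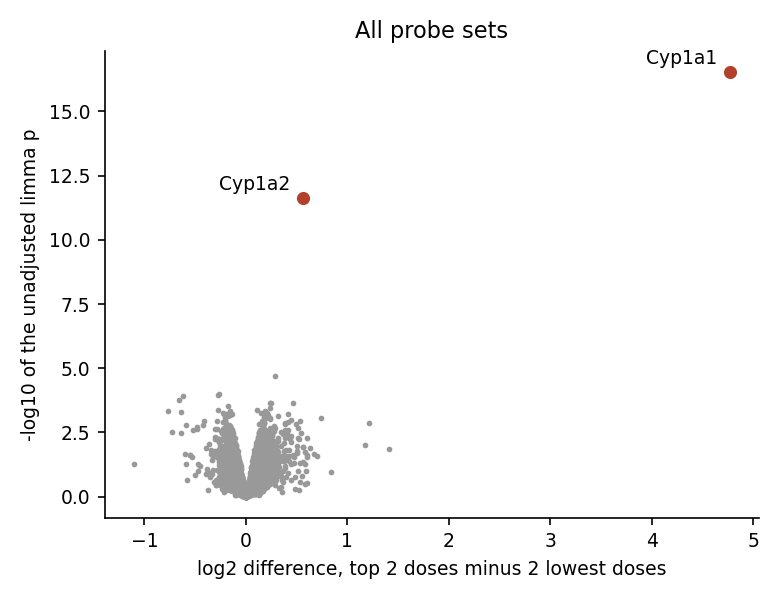
Log2 difference, top minus low doses, of all 31042 probe sets (horizontal) against -log10 of the unadjusted limma p (vertical). Cyp1a1 and Cyp1a2 stand apart from all other probe sets, which lie between -1.1 and 1.41 on the horizontal axis.

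The nearest measured genes on each side of the pair had differences under 0.1. Cyp1a1 and Cyp1a2 are neighbours on rat chromosome 8 in the RefSeq annotation. Among genes with a probe set, the nearest on one side are Scamp2, Cplx3 and Csk, a kinase that holds Src family kinases inactive. On the other side they are Edc3, Clk3 and Arid3b. Genes without a probe set were passed over. Their log2 differences were 0.03 (-0.05 as the mean of its probe sets), 0.08 (0.04) and -0.01 for Scamp2, Cplx3 and Csk and 0.05, 0.03 and 0.01 for Edc3, Clk3 and Arid3b, each with a 95% interval that includes 0.

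The start of Cyp1a2 is shown because it is 1 of the 2 genes that rose. The 250 bases before the RefSeq start on the minus strand (build GRCr8, chr8:66978150-66978399) read as follows, 5′ to 3′, with a TATAAA match in capitals.
Cyp1a2: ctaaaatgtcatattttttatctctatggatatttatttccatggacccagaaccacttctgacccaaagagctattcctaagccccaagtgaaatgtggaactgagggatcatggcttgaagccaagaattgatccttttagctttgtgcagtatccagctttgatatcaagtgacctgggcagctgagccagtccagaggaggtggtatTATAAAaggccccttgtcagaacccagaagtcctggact
The match is on the gene's own strand and begins 39 bases before the start. TATAAA is found on the gene's strand in 8.06% of the 33469 rat promoter windows of the same length, and on either strand in 12.9%. GCGTG, the core letters of the site to which AhR and Arnt bind, does not occur in this window on either strand, and it does in 25.9% of all windows. Sites farther away were not searched. No entry for Cyp1a1 is in the table.

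The other genes of the AhR route had differences far below that of Cyp1a1, and none of them passed the test. The difference of Nqo1, 0.6, was not smaller than that of Cyp1a2, 0.56, but its groups overlapped. Of 11 measured members of the AhR target list, 7 had a difference above 0, with a median of 0.17, and only Cyp1a1 and Cyp1a2 passed the test. Over all 14217 genes 48.5% had a difference above 0 and the median was 0. Without Cyp1a1 and Cyp1a2 the other 9 members had a median of 0, with 5 above 0.

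Nqo1, a quinone reductase that both AhR and Nrf2 can induce, had a minimum of 7.27, a median of 7.74 and a maximum of 9.75 at the top doses, against a minimum of 6.93, a median of 7.3 and a maximum of 9.14 at the low doses. The groups overlapped widely, with 2 of the 12 top-dose arrays above all low-dose arrays, and the difference was 0.6 (0.06 to 1.13, limma adjusted p = 0.954). Ahr, the receptor itself, differed by 0.23 (-0.04 to 0.51), or 0.08 as the mean of its probe sets, and Tiparp, an ADP-ribosyltransferase that represses AhR, by 0.17 (-0.01 to 0.35). Neither passed the test.

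Cyp1b1, the third enzyme of the family, differed by -0.01 (-0.16 to 0.14), Ahrr, the AhR repressor, by -0.02 (-0.12 to 0.09), and Aldh3a1, an aldehyde dehydrogenase induced by dioxins in rat liver, by 0 (-0.1 to 0.11). The mean log2 signals of Ahrr (3.42 at the top doses and 3.43 at the low doses) and Aldh3a1 (3.34 and 3.33) lay below the array medians. That of Cyp1b1 lay below the median level of all probe sets. The values carry no detection call, so the intervals of these genes bound the signal and not the transcript. Scd, the desaturase that makes monounsaturated fatty acids, differed by 0.4 (0.14 to 0.66, limma adjusted p = 0.805).

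The usual targets of the other receptors had small differences. Of 21 measured CAR and PXR targets 17 had a difference above 0, with a median of 0.02, and 0 passed by limma. Cyp3a23-3a1, a PXR target, differed by 0.14 (0.01 to 0.27) and Ephx1, the microsomal epoxide hydrolase, by 0.09 (-0.02 to 0.2). Among 25 PPARα targets 10 were above 0, with a median of -0.02, and Cyp4a1, the classical marker of peroxisome proliferators, differed by -0.07 (-0.28 to 0.13).

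Of 21 measured Nrf2 targets 18 had a difference above 0, with a median of 0.07, and none of them passed the test. Akr7a3, an aflatoxin aldehyde reductase, differed by 0.22 (0.05 to 0.4), Gsta3, a glutathione transferase, by 0.4 (0.03 to 0.77), and Hmox1, haem oxygenase, by 0.08 (-0.05 to 0.2). The conjugation enzymes had 20 of 23 members above 0, with a median of 0.02; Gstm3, a glutathione transferase, differed by 0.32 (0.15 to 0.48, limma adjusted p = 0.796). Among the other cytochromes P450, 14 of 37 members were above 0, with a median of -0.01. The male-specific Cyp2c11 differed by 0 (-0.07 to 0.07) and Cyp2e1, which metabolises ethanol, by -0.06 (-0.14 to 0.01).

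**Figure D3:**
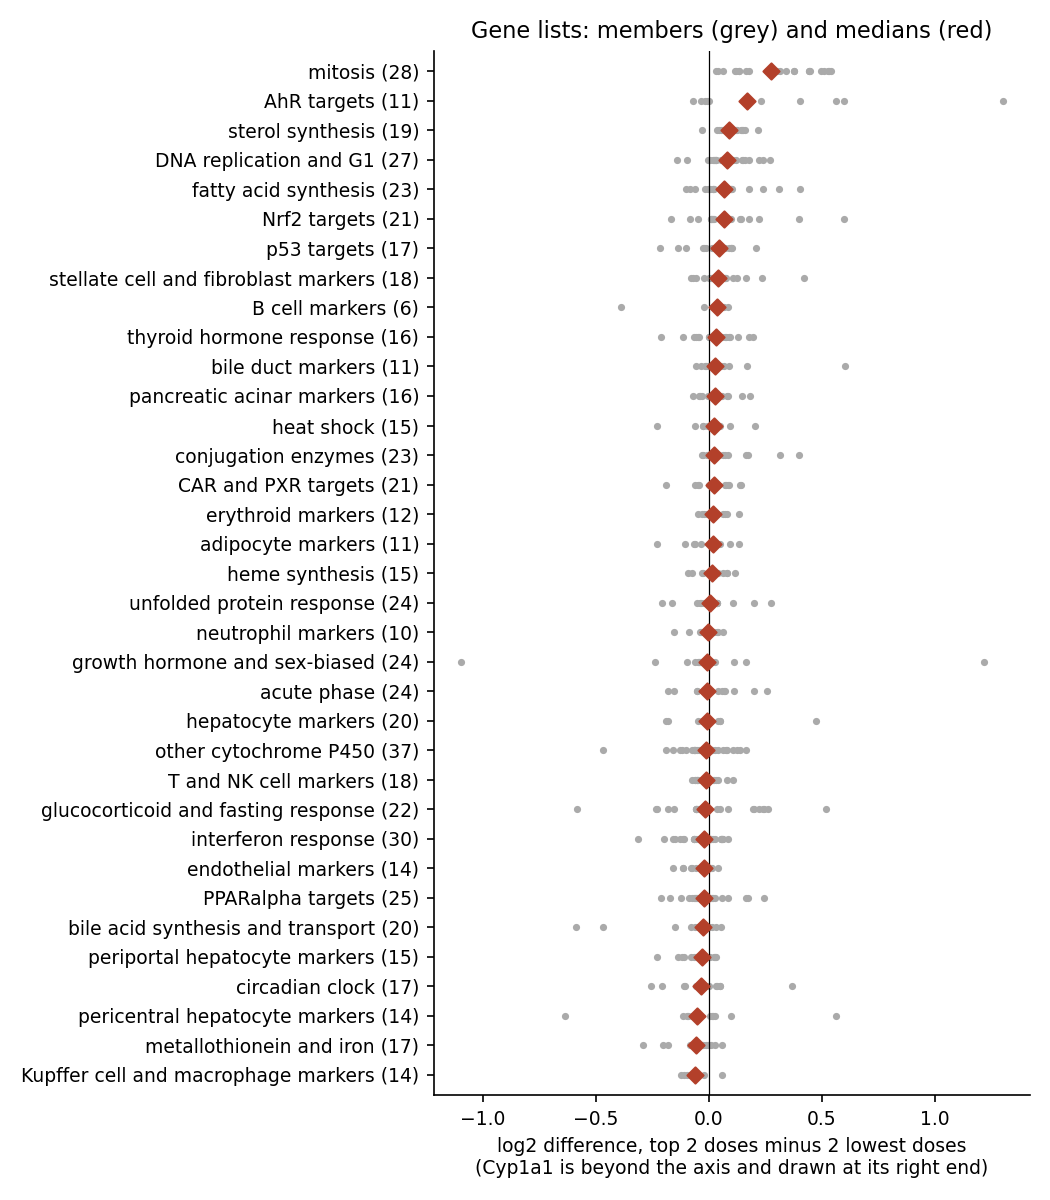
Log2 difference, top minus low doses, of each measured member (grey) and the median (red) of 35 gene lists, sorted by the median, with the number of members in brackets; Cyp1a1 is drawn at the right end of the axis. The mitosis list has the highest median, 0.28, and the Kupffer cell list the lowest, -0.06, and 33 of the 35 lists hold no member that passed the test.

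The mitosis list, 28 genes that act in cell division, stood highest of the 35 lists by its median, although no member passed the test across all probe sets. All 28 members had a difference above 0, with a median of 0.28, against 48.5% and a median of 0 over all genes. Of the 28, 21 had an unadjusted p under 0.05 in the upward direction and 0 in the other, where 2.74% of all 14217 genes had such a p upward and 2.43% downward. These genes vary together from animal to animal, so the members are not separate observations.

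Mki67, the proliferation antigen Ki-67, had a minimum of 4.1, a median of 4.57 and a maximum of 5.54 at the top doses, against a minimum of 3.78, a median of 4.27 and a maximum of 4.43 at the low doses. In 8 of the 12 top-dose arrays it lay above all low-dose arrays, and the difference was 0.44 (0.2 to 0.69, limma adjusted p = 0.796). The mean Mki67 signal lay below the median level of all probe sets. Cdk1, the kinase that starts mitosis, differed by 0.53 (0.23 to 0.83), Kif20a, a motor protein of cell cleavage, by 0.5 (0.21 to 0.78), Ccnb1, the cyclin partner of Cdk1, by 0.45 (0.15 to 0.74), and Top2a, a DNA topoisomerase, by 0.27 (0.1 to 0.44). The largest differences in the list were those of Ccnb2 (0.54), Cdk1, Ccna2 (0.53) and Ect2 (0.51), and the smallest was that of Kif11 (0.03).

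The score of the mitosis list, the mean over its members of the log2 difference from the low-dose mean, differed widely between the rats of a dose. At the top doses it had a minimum of -0.13, a median of 0.23 and a maximum of 1.04, against a minimum of -0.12, a median of -0.02 and a maximum of 0.13 at the low doses. Of the 12 top-dose rats 7 lay above all low-dose rats and 1 below all of them. By dose, the median score was -0.05 at 0.1 mg/kg, 0.03 at 0.97 mg/kg, 0 at 97.1 mg/kg and 0.49 at 970 mg/kg, and 2 of 6 rats at 97.1 mg/kg and 5 of 6 at 970 mg/kg lay above all low-dose rats. The highest rat, replicate 3 at 970 mg/kg, also had the highest score of neutrophil markers in its dose group, 0.46 against -0.23 to 0 in the other 5; the part of the other cells in the list's score was not tested. Without that rat the top-dose mean score was 0.23 in place of 0.29. In bulk tissue a smaller share of cells of a type and less RNA per cell cannot be told apart.

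Genes of DNA replication and the G1 phase lay above 0 in 24 of 27 cases with a median of 0.08, and 7 of the 27 had an unadjusted p under 0.05, all upward. Over all 14217 genes 2.74% had such a p upward and 2.43% downward. The members of this list were read on the same arrays and are not separate observations either. E2f1, a transcription factor that drives entry into S phase, had a minimum of 4.17, a median of 4.41 and a maximum of 4.62 at the top doses, against a minimum of 3.98, a median of 4.19 and a maximum of 4.31 at the low doses. In 9 of 12 top-dose arrays it lay above all low-dose arrays, and the difference was 0.24 (0.12 to 0.35, limma adjusted p = 0.695). All E2f1 values lay below the array medians and carry no detection call. Tk1, thymidine kinase, differed by 0.16 (0.06 to 0.27), Mcm6, a subunit of the replicative helicase, by 0.27 (0.07 to 0.47), and Ccnd1, cyclin D1, by -0.14 (-0.41 to 0.13). The p53 target list had 11 of 17 members above 0 and a median of 0.05.

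**Figure D4:**
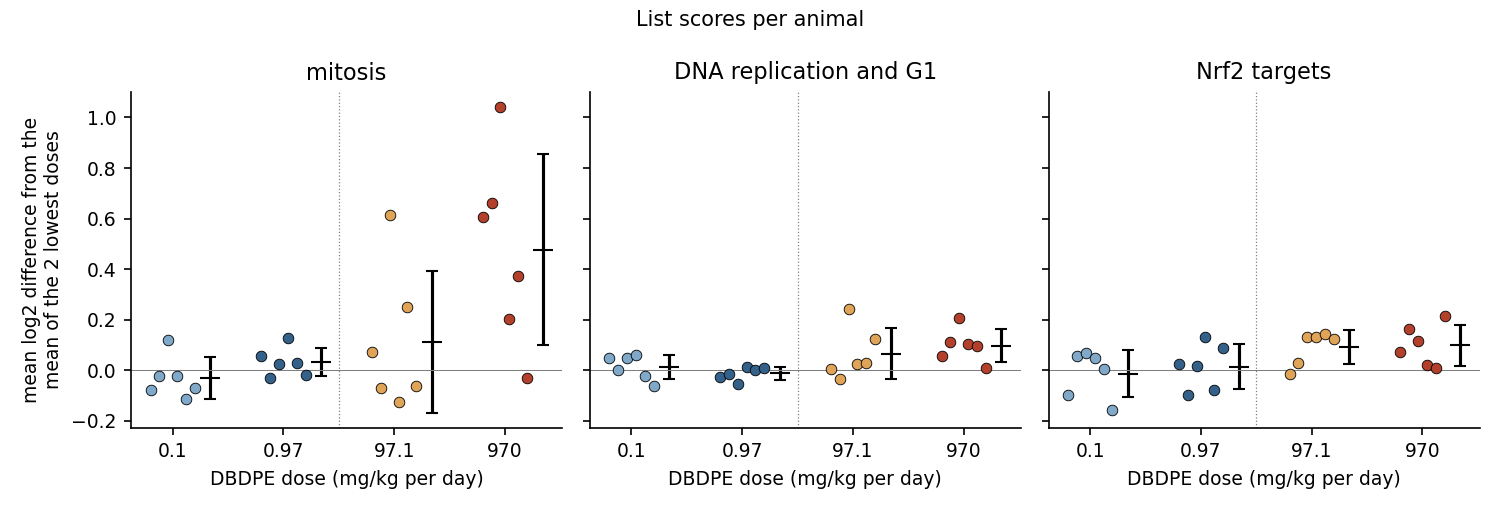
Score of the mitosis, DNA replication and G1, and Nrf2 target lists in each of 24 rats by DBDPE dose in mg/kg per day, calculated as for the mitosis score above, with the mean and SD of the 6 rats beside each dose. The mitosis score reaches 1.04 in 1 rat at 970 mg/kg and lies between -0.12 and 0.13 in the low-dose rats, while the highest score of the other lists is 0.24.

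No lipid or bile acid gene of the lists passed the test. The sterol synthesis list had 18 of 19 members above 0 with a median of 0.09, but the 2 top doses differed: its median against the low doses was 0.19 at 97.1 mg/kg, with 19 of 19 above 0, and -0.04 at 970 mg/kg, with 9 of 19. Idi1, an isomerase of the pathway, differed by 0.29 at 97.1 mg/kg and by 0 at 970 mg/kg. Fatty acid synthesis had 18 of 23 members above 0, with a median of 0.07, and here too the doses stood apart, with 19 of 23 above 0 and a median of 0.11 at 97.1 mg/kg and 11 of 23 and a median of -0.01 at 970 mg/kg. Whether the 2 doses differ in these lists was not tested.

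Among genes of bile acid synthesis and transport 4 of 20 were above 0, with a median of -0.03. Against the low doses 2 of the 20 were above 0 at 97.1 mg/kg, with a median of -0.04, and 8 at 970 mg/kg, with a median of -0.02. Whether the doses differ in this list was not tested. Cyp7a1, whose reaction sets the pace of the main route to bile acids, had a minimum of 9.53, a median of 10.38 and a maximum of 11.94 at the top doses, against a minimum of 9.33, a median of 11.17 and a maximum of 11.79 at the low doses. The groups overlapped, and its difference of -0.47 had an interval of -1.03 to 0.09. Nr0b2, the repressor SHP that bile acids induce, differed by -0.59 (-1.19 to 0.01), and Nr1h4, the bile acid receptor FXR, by -0.15 (-0.29 to -0.0037). None of the 3 passed the test.

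Outside Cyp1a1, the largest differences belonged to genes that varied widely between rats of 1 dose and did not pass the test. Only 4 probe sets differed by more than 1 upward and 1 downward; besides Cyp1a1 these were the 2 of Cish, that of Cdh17 and that of Bcl6, and Cdh17 was singled out after its values were seen. Cish, a feedback inhibitor that growth hormone induces, had a minimum of 6.32, a median of 7.62 and a maximum of 8.33 at the top doses, against a minimum of 5.1, a median of 5.58 and a maximum of 8.06 at the low doses. Its difference was 1.22 (0.52 to 1.91, limma adjusted p = 0.796), and that of its other probe set was 1.18 (0.31 to 2.04).

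Between the low doses, Cish differed by -0.92 (0.97 minus 0.1 mg/kg, -1.91 to 0.06). Bcl6, a transcriptional repressor that growth hormone pulses lower in rat liver, had a minimum of 6.07, a median of 6.85 and a maximum of 10.08 at the top doses, against a minimum of 6.18, a median of 7.78 and a maximum of 10.51 at the low doses, a difference of -1.1 (-2.21 to 0.01). Cdh17, a cadherin, differed by 1.41 (0.31 to 2.51), with values between 5.95 and 10.12 at the top doses, against 5.35 to 10.07 at the low doses. The list of growth hormone and sex-biased genes as a whole had 11 of 24 members above 0 and a median of -0.01, and Igf1, the growth hormone target that the liver secretes, differed by -0.03 (-0.08 to 0.03).

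Below the 2 passing genes, the smallest p upward belonged to a probe set with no gene name, with a difference of 0.29 and a limma adjusted p of 0.2. It passed, beside the other 2, with all 36 arrays in the fit (adjusted p = 0.0142) and without replicate 3 at 0.1 mg/kg (adjusted p = 0.0015). Among named genes, Ccdc34, E2f1, Cenpk, Cyb5a, Get1 and Klf15 followed, with adjusted p of 0.695 each by limma. Cyb5a, cytochrome b5, which hands electrons to cytochromes P450 and desaturases, had a minimum of 13.35, a median of 13.47 and a maximum of 13.62 at the top doses, against a minimum of 13.32, a median of 13.37 and a maximum of 13.42 at the low doses. In 10 of 12 top-dose arrays it lay above all low-dose arrays, with a difference of 0.11 (0.06 to 0.17, limma adjusted p = 0.695). Its mean was 13.37 ± 0.03 at 0.1 mg/kg, 13.36 ± 0.02 at 0.97 mg/kg, 13.44 ± 0.05 at 97.1 mg/kg and 13.52 ± 0.06 at 970 mg/kg (SD, n = 6 each). Its call depends on how limma estimates the spread: with variances not moderated the adjusted p was 0.0324, and with an intensity trend and robust prior it was 0.0288.

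Get1, a receptor for tail-anchored membrane proteins, lay above all low-dose arrays in 9 of 12 top-dose arrays and level with the highest low-dose array in 1 more, with a difference of 0.15 (0.07 to 0.23) that was 0.09 as the mean of the gene's probe sets. Cenpk, a kinetochore protein, differed by 0.24 (0.12 to 0.36), Klf15, a zinc finger factor of the fasting response, by 0.21 (0.1 to 0.31), and Ccdc34 by 0.25 (0.13 to 0.36), or 0.13 as the mean of its probe sets. The Ccdc34 probe set is of a kind that can also bind other transcripts. The signals of Ccdc34 (2.65 to 3.35) and Klf15 (2.6 to 3.24) lay far below the array medians and carry no detection call. Their differences are of signal and were not shown to be of transcript.

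The smallest p downward belonged to Pard3, Oaf, Prcp, Vamp1, Id4, Kdr, Tbx3 and Bag3, with adjusted p between 0.614 and 0.695. Prcp, a lysosomal carboxypeptidase, had a minimum of 6.34, a median of 6.46 and a maximum of 7.71 at the top doses, against a minimum of 7.16, a median of 7.3 and a maximum of 7.83 at the low doses. In 8 of 12 top-dose arrays it lay below all low-dose arrays, while the others were among them, and the difference was -0.62 (-0.9 to -0.34, limma adjusted p = 0.614). Its second probe set gave -0.66, with an adjusted p of 0.695 by limma, and it was the 1 probe set that passed as lower, at -0.76 (adjusted p = 0.0443), when replicate 2 at 970 mg/kg was left out. At the first probe set the mean difference was larger at the lower of the top doses, -0.81 at 97.1 mg/kg against -0.43 at 970 mg/kg, and the test between those doses was not made. The top-dose signals fell into separate ranges. At 97.1 mg/kg replicate 1 had 7.19 and the others 6.34 to 6.53. At 970 mg/kg replicates 1, 3 and 6 had 6.47, 6.36 and 6.345, and replicates 2, 4 and 5 had 7.71, 7.33 and 7.32.

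Kdr, the VEGF receptor of endothelial cells, lay below all low-dose arrays in 10 of 12 top-dose arrays, with a difference of -0.16 (-0.24 to -0.08, limma adjusted p = 0.695) that was -0.07 as the mean of its probe sets. In the endothelial marker list 4 of 14 members were above 0, with a median of -0.02. Tbx3, a repressor found in hepatocytes around the central vein, differed by -0.64 (-0.96 to -0.31), or -0.27 as the mean of its probe sets, and Bag3, a co-chaperone of Hsp70, by -0.23 (-0.35 to -0.11). Pard3, a cell polarity protein, differed by -0.26 in the probe set named, but by -0.01 as the mean of its probe sets, another of which gave 0.18. Oaf differed by -0.28, Vamp1, a vesicle fusion protein, by -0.18, and Id4, an inhibitor of helix-loop-helix factors, by -0.27. The mean Vamp1 signal lay below the median level of all probe sets.

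Markers of the tissue and of other cells lay in overlapping ranges in both groups. Alb, serum albumin, lay between 14.64 and 14.68 on every array, at the upper end of the signal scale (highest value 14.68), so its probe set could not show a rise. The summed hepatocyte list, 20 genes as the mean log2 level per array, lay between 12.75 and 12.86 at the top doses, against 12.76 and 12.87 at the low doses. The mean log2 level of 14 Kupffer cell markers lay between 8.33 and 8.89 at the top doses, against 8.22 and 9.01 at the low doses. Of the 14 differences 1 was above 0, with a median of -0.06 and 0 past the test or at an unadjusted p under 0.05 by limma. The top doses were unlike in this list: 1 of the 14 was above 0 at 97.1 mg/kg, with a median of -0.09. At 970 mg/kg 6 were, with a median of -0.02, and the difference between these doses was not tested. The levels of 18 T and NK cell markers (4.63 to 4.89, against 4.63 to 4.85) and of 12 erythroid markers (5.43 to 5.69, against 5.36 to 5.62) are given for top-dose arrays against low-dose arrays. Interferon response genes had 11 of 30 members above 0, with a median of -0.02. Against the low doses 2 of the 30 were above 0 at 97.1 mg/kg, with a median of -0.11, and 20 at 970 mg/kg, with a median of 0.03, a difference between doses that was not tested. Genes of metallothionein and iron had 3 of 17 above 0, with a median of -0.06.

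The dose groups can also be paired so that the 2 sides share no array. With 970 minus 0.97 mg/kg on one side and 97.1 minus 0.1 mg/kg on the other, the differences correlated at r = 0.119 over the 31042 probe sets and at r = 0.055 over the 31040 without Cyp1a1 and Cyp1a2. With 970 minus 0.1 mg/kg and 97.1 minus 0.97 mg/kg these values were 0.12 and 0.059. The sign was the same for 49.4% and 50.2% of the probe sets. These are descriptions across probe sets, which share the arrays and are not independent.

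For the 2 marker genes every top-dose array lay above every low-dose array, so their differences had to be above 0 in both pairings. The pairings use the same arrays as the main comparison and are no separate evidence for these genes. Cyp1a1 differed by 6.07 and 3.46 in the first pairing and by 6.2 and 3.33 in the second. Cyp1a2 differed by 0.75 and 0.37 and by 0.73 and 0.4. The mitosis list had a median of 0.43 for 970 minus 0.97 mg/kg and 0.15 for 97.1 minus 0.1 mg/kg, with 28 and 25 of 28 members above 0. In the other pairing the medians were 0.49 and 0.08, with 28 and 23 members above 0. Over all genes the medians of the 4 differences lay between -0.01 and 0.

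**Figure D5:**
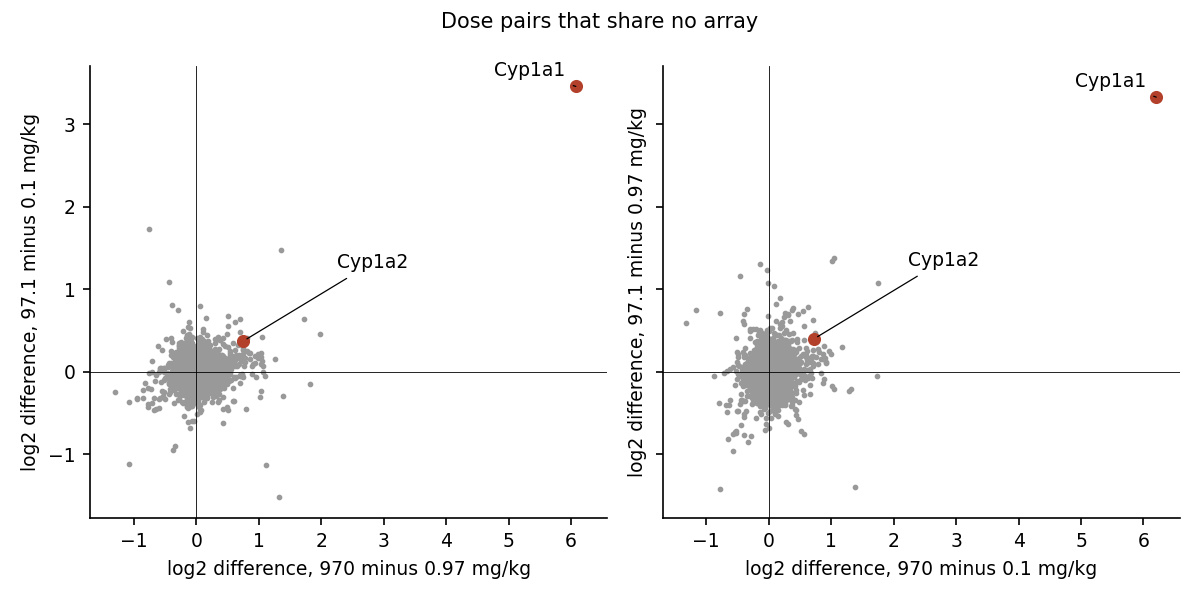
Log2 differences of all 31042 probe sets between dose pairs that share no array, 970 minus a low dose (horizontal) against 97.1 minus the other low dose (vertical). Cyp1a1 lies far to the upper right in both panels, Cyp1a2 at the upper right edge of the cloud, and the rest scatter around 0 with r = 0.055 (left) and 0.059 (right) without these genes.

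For most probe sets these 24 arrays bound the difference in signal closely. The 95% interval of a probe set's difference reached, at the median, 0.11 to either side on the log2 scale, and for 99.2% of the probe sets the interval lay within 1.5-fold in both directions, for 99.8% within 2-fold. These intervals are not adjusted. They include probe sets of low signal, where they bound the signal and not the transcript. Genes that varied widely between rats had wider ones, such as Cish (0.52 to 1.91) and Bcl6 (-2.21 to 0.01). Arrays correlated with each other at 0.993 to 0.997, and the control for RNA quality, the log2 signal of the 3′ minus the 5′ beta-actin probes, was 1.15 ± 0.07 at the top doses and 1.13 ± 0.07 at the low doses (SD, n = 12 each). Of the variance between arrays, 10.7% lay on principal component 1, and 1.43% of that part separated the top from the low doses. Component 2 held 8.44%, and 22.1% of that part separated them.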

How the data were processed

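Per the labels' protocols and the submitters' processing notes, RMA and the affy package (versions not stated) made the values that the authors deposited, a log2 signal for every probe set. The 57 control probe sets were left out, and no filter on low values was applied. Of 31042 probe sets, 20826 name 1 gene in the platform annotation, 436 several and 9780 none; symbols were updated by Entrez ID through RefSeq (20758 matched), giving 14217 genes, each taken for lists by its probe set of highest mean.

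Means of the 4 dose groups were fitted over 24 arrays in limma 3.58.1 (R 4.3.3; lmFit, eBayes), with the mean of 970 and 97.1 mg/kg minus that of 0.97 and 0.1 mg/kg as the contrast, two-sided, adjusted over all probe sets at 0.05. Permutation tests used SciPy 1.17.1. The script was tested on simulated data. Named genes were those past the threshold, filled up to 8 per direction by smallest p, 30 panel genes, up to 4 per list by p, and 3 measured neighbours a side. The comparison, its genes and 35 lists (690 genes, 600 measured) were chosen with earlier results of these data known, so the lists were not tested. The number of arrays, 6 per dose, limits the precision.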

Additional observations from a re-analysis of the deposited data

Results flagged for a closer look

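Single rats stood apart from the other 5 of their dose group in 12 of 208 groups of values examined, where chance gives 1 in 20, or 10.4. At 970 mg/kg these were the Kupffer cell and macrophage score of replicate 6 (-0.35, others 0 to 0.12), the neutrophil score of replicate 3 (0.46, others -0.23 to 0) and the bile duct score of replicate 4 (-0.21, others 0.06 to 0.15). At 97.1 mg/kg they were the Prcp log2 signal of replicate 1 (7.19, others 6.34 to 6.53) and the CAR and PXR target score of replicate 4 (0.11, others -0.05 to 0). At 0.97 mg/kg replicate 2 stood apart in Id4 (9.16, others 9.38 to 9.51) and in the bile acid score (-0.13, others 0 to 0.08). At 0.1 mg/kg replicate 4 had a low Cyp1a1 log2 signal (4.18, others 4.62 to 4.75) and a low Klf15 (2.6, others 2.83 to 2.94). The others at that dose were the AhR target score of replicate 5 (0.21, others -0.09 to 0.01), the hepatocyte score of replicate 3 (-0.0539, others 0.02 to 0.05) and the B cell score of replicate 1 (0.44, others -0.18 to -0.01).

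On arrays outside the comparison, the median Cyp1a1 log2 signal of 6 rats at 9.71 mg/kg was 4.86, against 4.35 to 4.76 in the 6 vehicle rats; 4 of 6 lay above all vehicle rats and 1 of 6 above all low-dose rats. The median Cyp1a2 signal at 9.71 mg/kg was 12.94, against 12.58 to 12.93 in vehicle, and 4 of 6 lay above all vehicle rats and 0 of 6 above all low-dose rats. This was not particular to 9.71 mg/kg: the Cyp1a2 medians at 0.1 mg/kg (12.998) and 0.97 mg/kg (12.973) also lay above all vehicle rats. No test was made of these arrays here.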

How the results depend on the processing

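Cyp1a1 and Cyp1a2 passed as higher under all 34 alternative fits of the contrast, with log2 differences of 4.65 to 4.91 for Cyp1a1 (limma adjusted p 6.99e-19 to 5.8e-07) and 0.54 to 0.57 for Cyp1a2 (1.19e-10 to 3.98e-05). The count of higher probe sets was 2 to 3, the third being Cyb5a under an intensity trend with robust prior and with variances not moderated, or a probe set with no gene name with all 36 arrays (adjusted p = 0.0142) and without replicate 3 at 0.1 mg/kg (0.0015). The count of lower probe sets was 0 to 1 when replicates were left out in turn, the 1 being the second Prcp probe set without replicate 2 at 970 mg/kg. With all 36 arrays in the fit 4 probe sets passed at 970 mg/kg against the low doses, and with only the arrays compared 4 passed at 97.1 mg/kg. The 36 pairs of same-numbered samples had residual correlations of -0.2 to 0.26 (mean 0.016, 7 of them over 0.1), and 8 of 24 arrays correlated best with their own number, where chance gives 4. The number was not taken to pair the samples, and with a replicate block 2 probe sets were higher and 0 lower. Of 162 other probe sets named by the rule, which leaves out the second of Prcp and the one with no gene name, 1 (Cyb5a) passed under any alternative; 149 kept their sign in all of them while 13 changed it in some. The median difference of all probe sets was 0 as deposited, 0 after cyclic loess and -0.01 after centring, and the sign of the list medians changed for 0 lists under loess and for 1 when all probe sets of a gene were averaged.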
